A study of Mus musculus with 6 samples.

Results

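The genes described here mark B lymphocytes and their antibody-secreting descendants, the plasma cells. They were followed through RNA-seq of liver endothelial cells (ECs) from young and aged mice. The 9 genes, Cd79a, Cd79b, Ms4a1, Igj, Mzb1, Pou2af1, Blk, Cd22 and Tnfrsf13b, were chosen by symbol from a count table of 24421 gene symbols. All 9 had a row, Igj under its newer symbol Jchain. The mice were C57BL/6J wild-type females, and the groups differed in age. The young group held 3 libraries at 10 weeks, and the aged group held 1 library each at 127, 131 and 136 weeks. Each library came from 50000 CD31+CD45- liver cells isolated by flow cytometry, so that cells bearing the leukocyte surface protein CD45 had been gated out. Mice with visible tumours, or with an enlarged liver or spleen, had been excluded by the authors.

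A B cell senses antigen through a membrane antibody that is held in complex with the signalling chains CD79a and CD79b. Kinases of the SRC family, BLK among them, relay the signal, CD22 dampens it, and CD20 (encoded by Ms4a1) sits beside the receptor on mature B cells. A B cell that becomes a plasma cell lowers many of these genes and turns to making secreted antibody, for which the joining chain (Igj) links antibody monomers and MZB1 helps the chains to fold in the endoplasmic reticulum. The adult liver is not a site of B cell formation, yet its sinusoids carry blood lymphocytes past the ECs. Genes for the antibody chains themselves were not analysed here.

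The libraries held 23001556 to 31651817 counts, at which 3 counts, taken here as the detection floor, equalled 0.0946 to 0.135 CPM, the count scaled to a common library size after TMM normalization. Pecam1, which encodes CD31, had 30426 to 50377 counts in each library. Young replicate 3 and the 127-week library carried 0.960 to 1.29% of their counts on Lars2 and Rn45s, of which Rn45s is the ribosomal RNA precursor, against 4.68 to 5.53% in the other 4. Differences within each of these sets are given after the pooled ones.

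The members with most counts in the 136-week library were Igj, Cd79a and Cd22. The 120 bases before the start of each are shown 5′ to 3′ on the gene's own strand, because these genes were high in the same library and their promoters can be read for motifs of B lineage factors. They come from RefSeq on GRCm38.p6. The windows lie at chr5:88527898-88528017 (minus strand), chr7:24897377-24897496 (plus strand) and chr7:30879029-30879148 (minus strand). Capitals mark a match to the palindrome of TCCC, any 2 bases and GGGA, which EBF1, a factor that starts the B cell programme, is known to bind.
Igj: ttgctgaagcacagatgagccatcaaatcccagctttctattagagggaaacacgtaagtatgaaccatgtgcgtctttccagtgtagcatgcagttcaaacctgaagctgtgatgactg
Cd79a: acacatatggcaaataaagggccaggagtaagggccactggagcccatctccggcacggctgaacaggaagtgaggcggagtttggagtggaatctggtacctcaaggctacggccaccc
Cd22: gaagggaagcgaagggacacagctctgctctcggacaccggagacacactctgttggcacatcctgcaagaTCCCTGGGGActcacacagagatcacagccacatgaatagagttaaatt

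A promoter was matched for 5 of the 9 genes (also Pou2af1 and Tnfrsf13b), and both strands were searched from 250 bases before to 50 after the start. The palindrome was found in Cd22 alone, from base -49 to base -40 relative to the start, and 0.904% of the 32851 promoters of this length held it. The octamer ATGCAAAT, the site that POU2AF1 occupies together with OCT factors, was in 0 of the 5 and in 1.74% of all promoters. A match describes letters only, and its absence from a window is no measure of the factor.

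The antigen receptor chains were low in 5 libraries and high in the sixth. Cd79a (mm9, chr7:25682400-25687216, plus strand, 5 exons) had 15, 10 and 24 counts in the young libraries and 21, 18 and 80 counts at 127, 131 and 136 weeks. The first 5 values lay close together and the 136-week library was 4.29 times the highest of them in CPM. The level was 0.589 ± 0.155 CPM in young and 1.56 ± 1.47 CPM in aged ECs (SD, n = 3 each). The ages overlapped, since young replicate 3 exceeded the 127- and 131-week libraries. The log2 fold change of aged over young was 1.39 ± 0.75 (SE, adjusted p = 0.505, edgeR), and without the 136-week library it was 0.26. In bulk RNA a difference in the number of B cells and a difference in RNA per cell cannot be told apart. Cd79b (chr11:106172655-106176076, minus strand, 6 exons) had 13, 6 and 1 counts in young and 7, 1 and 48 counts in aged libraries, in the same order. Here the aged mice at 127 and 131 weeks stood within the young range, and the 136-week library was 4.03 times the highest other library. Its log2 fold change was 1.5 ± 1.38 (SE, adjusted p = 0.724, edgeR), and -0.85 without the 136-week library.

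Ms4a1 and Cd22, which also encode surface proteins of B cells, had the same high library. Ms4a1 (chr19:11324654-11340669, minus strand) had 4, 7 and 0 counts in young and 16, 0 and 51 counts in aged libraries. It was listed at 0 in one library of each age, and the exact Poisson 95% interval of a count of 0 reaches 3.69 expected counts. At 136 weeks it was 3.76 times the highest other library, and its log2 fold change was 2.51 ± 1.63 (SE, adjusted p = 0.584, edgeR). This was 1 of 3 members that stayed higher on the aged side without the 136-week library, at a log2 fold change of 0.89. Cd22 (chr7:31650421-31665361, minus strand), the inhibitory lectin of the receptor complex, had 8, 0 and 1 counts in young and 3, 1 and 61 counts in aged libraries. The 136-week library was 8.32 times the next highest, which was young replicate 1, and 22.6 times the young mean, the highest such ratio among the members. The log2 fold change of Cd22, 2.92 ± 1.73 (SE, adjusted p = 0.55, edgeR), became -0.59 without that library.

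**Figure D1:**
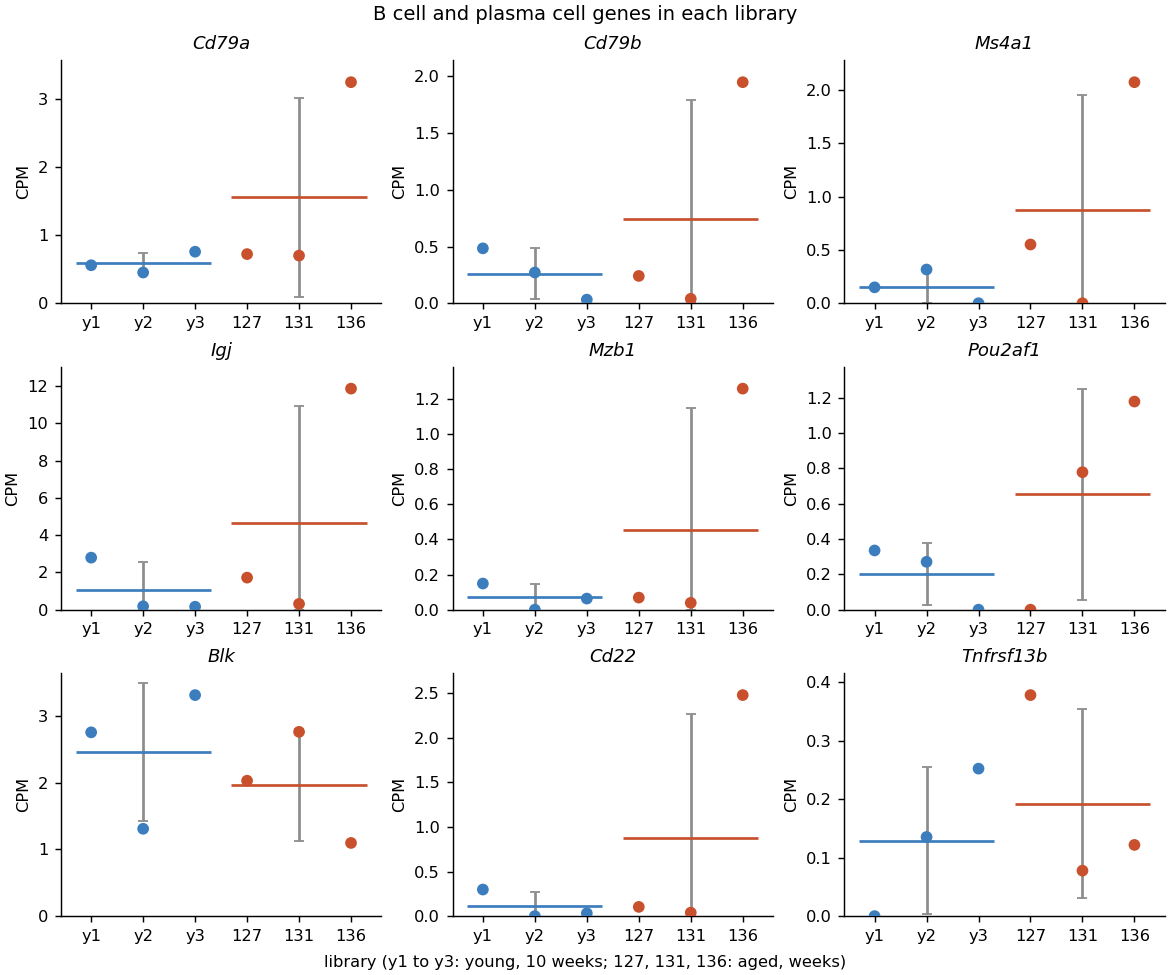
CPM (y axis, linear and different in each panel) of the 9 genes in each library (x axis: y1 to y3, young replicates at 10 weeks, blue; 127, 131 and 136, aged libraries in weeks, orange). Points are libraries, horizontal lines are group means and grey bars are ± SD, drawn no lower than 0. The 136-week library was the highest of the 6 for 7 genes, while Blk and Tnfrsf13b had other orders.

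Igj, of the antibody secretion genes, gave the widest range of CPM between libraries among the 9. Igj (chr5:88949537-88956916, minus strand, 4 exons) had 75, 4 and 5 counts in young and 50, 8 and 292 counts in aged libraries. Young replicate 1 exceeded the 127- and 131-week libraries, so that a high value was not restricted to aged mice. The level was 1.04 ± 1.51 CPM in young and 4.63 ± 6.30 CPM in aged ECs (SD, n = 3 each), and in both groups the SD was above the mean. The log2 fold change was 2.14 ± 1.47 (SE, adjusted p = 0.606, edgeR) with all libraries, -0.035 without the 136-week library and 4.74 without young replicate 1. Mzb1, the antibody chaperone of the endoplasmic reticulum, had 4, 0 and 2 counts in young and 2, 1 and 31 counts in aged libraries. Apart from the 136-week library, where it was 8.46 times the next highest, Mzb1 stood at or near the floor of 3 counts. Its log2 fold change was 2.56 ± 1.56 (SE, adjusted p = 0.558, edgeR), and -0.39 without the 136-week library.

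Pou2af1, Blk and Tnfrsf13b departed from this order. Pou2af1 (chr9:51021795-51048184, plus strand) encodes a lymphocyte coactivator of octamer-bound factors, and had 9, 6 and 0 counts in young and 0, 20 and 29 counts in aged libraries. Both the 131- and the 136-week libraries were above every young library, and the 127-week library was at 0. Its log2 fold change was 1.69 ± 1.54 (SE, adjusted p = 0.720, edgeR), and 0.95 without the 136-week library. Blk (chr14:63991674-64036024, minus strand, 13 exons) had 74, 29 and 105 counts in young and 59, 71 and 27 counts in aged libraries, and was the only member at 0.5 CPM or more in all 6. It was lowest at 136 weeks, the library in which 7 other members were highest, at 0.446 times the young mean in CPM. On the deposited FPKM scale, which corrects for transcript length, it was lowest in young replicate 2 (0.326), and the 136-week library (0.413) was at 0.793 times the young mean. The level was 2.46 ± 1.03 CPM in young and 1.96 ± 0.835 CPM in aged ECs (SD, n = 3 each), with a log2 fold change of -0.33 ± 0.52 (SE, adjusted p = 0.860, edgeR). The FPKM means were 0.521 in young and 0.532 in aged ECs, so that its direction depended on the table. Tnfrsf13b (chr11:60940257-60962874, plus strand) encodes TACI, a receptor for the survival ligands BAFF and APRIL, and had 0, 3 and 8 counts in young and 11, 2 and 3 counts in aged libraries. It did not reach 0.5 CPM in any library and was not tested; fitted with no filter its log2 fold change was 0.55 ± 1.27 (SE, adjusted p = 0.912, edgeR).

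**Figure D2:**
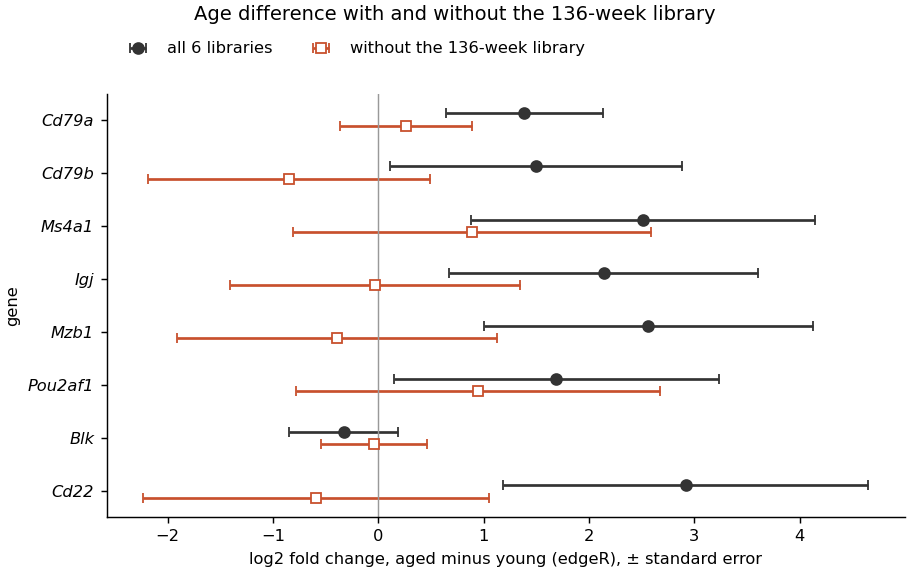
Log2 fold change of aged over young ECs (x axis, points, with bars of ± standard error from edgeR) for the 8 genes that passed the filter on low counts (y axis), with all 6 libraries (filled) and without the 136-week library (open). Of these, 7 lay above 0 with all libraries and 3 without the 136-week library.

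Across the 9 genes, 0 passed an adjusted p of 0.05 in either direction in edgeR, as was true of 0% of the 14612 genes tested, whose smallest adjusted p was 0.0735. No member reached an unadjusted p of 0.05 either (0 of 8), where 8.32% of all genes did so on the higher and 4.32% on the lower side. Without the 136-week library the count was again 0 of 8, and 5.03% of all genes passed on the higher side. DESeq2 and limma-voom also called 0 members, while DESeq2 called 3.37% of its tested genes higher and 1.05% lower. In 0 of 9 genes were the aged libraries all above or all below the young ones, against 9.62% (above) and 8.33% (below) of all tested genes. The 136-week library held the highest value for 7 of 9 genes, compared with 25.7% of all tested genes, and for 6 of 9 it was at least 2 times every other library, compared with 5.91%.

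The direction of the list rested on that library. With no filter, 8 of the 9 genes had a log2 fold change above 0, and 51.1% of all tested genes did, with medians of 1.67 over the 9 genes and 0.0098 over all tested genes. Over the 8 genes that passed the filter the median was 1.91, and without the 136-week library it was -0.039, with 3 of the 8 above 0 against 50.7% of all genes. Cd79b, Mzb1 and Cd22 passed the filter through the 136-week library alone, so the values over 8 genes are not independent of it. Taken per library as the median log2(CPM + 1) difference of all 9 genes from the young mean, young replicates 1, 2 and 3 stood at 0.16, -0.096 and -0.095. The 127-, 131- and 136-week libraries stood at 0.0014, -0.061 and 1.24. The 127- and 131-week values lay within the range of the young libraries and the 136-week value lay above it.

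Within the 4 libraries with more Lars2 and Rn45s, which include the 136-week library, the median aged minus young difference of all 9 genes was 0.52 on the log2(CPM + 1) scale. Between young replicate 3 and the 127-week library it was 0.097, with 1 library per age and hence no estimate of error. Igj was higher on the aged side in both sets, by 0.96 and 1.23. Ms4a1 was as well, by 0.51 and 0.63, and Cd79b, by 0.35 and 0.27. Cd79a differed by 0.84 in the first set and by -0.029 in the second.

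Per transcript length, on the FPKM scale, all 9 genes were low. In young ECs the order of mean levels was Igj (0.523), Blk (0.521), Cd79a (0.312), Cd79b (0.255), Tnfrsf13b (0.177), Mzb1 (0.0984), Pou2af1 (0.0825), Ms4a1 (0.0807) and Cd22 (0.0281). Every pair of neighbours in that order overlapped in range over the 3 young libraries. The FPKM did not follow the counts for Tnfrsf13b. In young replicate 2 it had 3 counts and 0.241 FPKM, where Pou2af1, of similar exonic length (2566 against 2836 bases), had 6 counts and 0.111 FPKM. At 131 weeks Tnfrsf13b had 2 counts and 0 FPKM, so its rank depended on the table. In the 136-week library Igj stood at 6.01 FPKM, Cd79a at 2.68, Cd79b at 1.77, Mzb1 at 1.73 and Ms4a1 at 1.08. Cd22, Pou2af1, Blk and Tnfrsf13b were below 1 FPKM there, at 0.602, 0.479, 0.413 and 0.216. Blk thus ranked second in young ECs and eighth of 9 at 136 weeks, and the antigen receptor pair ranked next to Igj.

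The balance between the secretory gene Igj and the receptor gene Cd79a was read from their counts within a library, where library size cancels. Igj made up 83.3% of the counts of the pair in young replicate 1 (exact Clopper-Pearson 95% interval 74.0 to 90.4%), 28.6% in replicate 2 (8.39 to 58.1%) and 17.2% in replicate 3 (5.85 to 35.8%). At 127, 131 and 136 weeks it made up 70.4% (58.4 to 80.7%), 30.8% (14.3 to 51.8%) and 78.5% (74.0 to 82.6%). Young replicate 1, the 127-week and the 136-week libraries were high in Igj relative to Cd79a and the other 3 were low, so this balance did not separate the ages. No molecular identifiers were used, so that several reads may stem from 1 molecule, and these intervals cover counting error only.

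CD45 itself, the protein against which the cells were gated, is encoded by Ptprc, and its RNA was followed beside the B cell genes. Ptprc had 42, 26 and 54 counts in young and 220, 33 and 631 counts in aged libraries, with a log2 fold change of 2.95 ± 0.93 (SE, adjusted p = 0.301, edgeR). DESeq2 called Ptprc at an adjusted p of 0.0130, and without the 136-week library its edgeR log2 fold change was 1.58. Like most of the B cell genes it was highest at 136 weeks, and like Ms4a1 it was also above every young library at 127 weeks. Cd79a made up 26.3, 27.8 and 30.8% of the counts of Cd79a and Ptprc together in the young libraries, and 8.71, 35.3 and 11.3% in the 127-, 131- and 136-week libraries. The intervals of the 127-week (5.47 to 13.0%) and 136-week libraries (9.02 to 13.8%) lay below those of all young libraries, the lowest of which began at 14.2%. Blk made up 63.8, 52.7 and 66.0% of the counts of Blk and Ptprc in young ECs, and 21.1, 68.3 and 4.10% in aged ECs in order of age. The 127- and 136-week libraries thus had fewer Cd79a and Blk counts per Ptprc count than the young libraries, whereas the 131-week library had proportions near those of the young. This was not so for every member. Igj made up 64.1, 13.3 and 8.47% of the counts of Igj and Ptprc in young libraries and 18.5, 19.5 and 31.6% in aged libraries in order of age. Cd22 made up 16, 0 and 1.82% of its pair with Ptprc in young libraries and 1.35, 2.94 and 8.82% in aged libraries. For both, the aged shares lay within the young range.

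**Figure D3:**
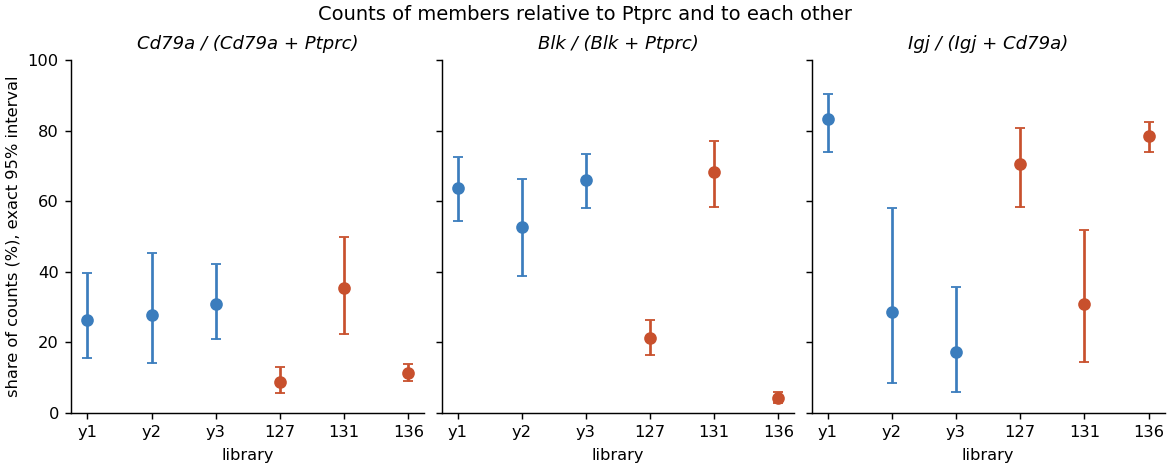
Share of counts (y axis, %) taken by Cd79a and by Blk when each is paired with Ptprc, and by Igj when paired with Cd79a, in each library (x axis, labelled as in the plot of all 9 genes). Points are shares and bars are exact 95% binomial intervals; Blk made up 52.7 to 66.0% of its pair in the young libraries and 4.10% at 136 weeks.

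Markers of other leukocytes moved with the B cell genes in the 136-week library. All 9 of 9 pan-leukocyte genes were highest there, and their summed level was 225.7 CPM, against 20.1 to 29.7 CPM in young libraries, 66.4 CPM at 127 weeks and 20.8 CPM at 131 weeks. For T and NK cell genes 10 of the 11 tested were highest there, with a sum of 50.8 CPM against 9.42 to 10.9 CPM in young libraries, 21.6 CPM at 127 weeks and 11.7 CPM at 131 weeks. For myeloid and Kupffer cell genes 9 of 10 were highest there, with a sum of 511 CPM against 49.5 to 93.7 CPM in young libraries, 205 CPM at 127 weeks and 33.6 CPM at 131 weeks. The leukocyte sums were thus above the young range at 127 weeks as well. The summed level of 10 endothelial markers was 21332 to 22969 CPM in young libraries and lower in all aged libraries, at 13133.5, 16947 and 12144 CPM in order of age. The sum did not stand for each gene, since 7 of the 10 had a lower log2 fold change and 3 a higher one. In 6 of the 10 every aged library was below every young one, against 8.33% of all tested genes. Pecam1 was at 1444 CPM in young and 1459 CPM in aged ECs, and Lyve1 was highest at 136 weeks. Hepatocyte markers summed to 85.0 to 144 CPM in young libraries and to 78.9, 72.2 and 64.7 CPM in aged libraries. The part of leukocytes in the B cell gene values was not tested.

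**Figure D4:**
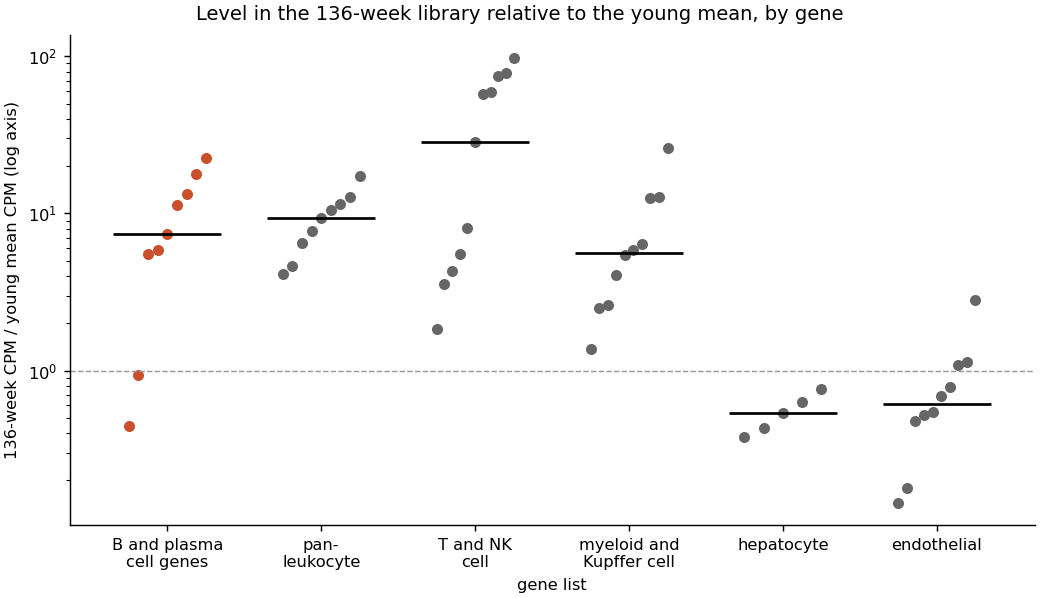
Level in the 136-week library divided by the mean of the 3 young libraries (y axis, CPM ratio, log scale) for all 9 B cell and plasma cell genes and, in the other lists, each gene that passed the filter (x axis). Points are genes and bars are list medians; 7 of the 9 genes lay between 5.52 and 22.6, Tnfrsf13b at 0.943 and Blk at 0.446, while hepatocyte genes lay below 1.

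Other genes of the B cell surface and its receptor signalling gave a mixed picture. Of 18 measured genes 17 were tested, 13 were higher and 4 lower in aged ECs, 0 passed the adjusted threshold in edgeR, and 12 of the 17 were highest at 136 weeks, against 25.7% of all tested genes. At an unadjusted p of 0.05 there were 2 higher and 2 lower, where all tested genes gave 8.32% and 4.32%, and DESeq2 called 1 in each direction, where all gave 3.37% and 1.05%. Pik3ap1, an adaptor for PI3-kinase in B cell receptor signalling, had 56, 25 and 91 counts in young and 159, 117 and 318 counts in aged libraries, with every aged library above every young one (log2 fold change 1.90 ± 0.53, SE, adjusted p = 0.256, edgeR). Plcg2, the phospholipase of the receptor pathway, was higher in all aged libraries too, by a log2 fold change of 0.83. Fcrla, an Fc receptor-like protein held inside B cells, went the other way, with 106, 94 and 102 counts in young and 16, 29 and 33 counts in aged libraries. Its log2 fold change was -1.92 ± 0.44 (SE, adjusted p = 0.235, edgeR), which DESeq2 called at an adjusted p of 0.00345, and without the 136-week library it was -2.18. Fcrla was thus a gene named for B cells whose ages were separate without a high 136-week library.

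Among 12 transcription factors of the B lineage, Pax5, which fixes B cell identity, was listed at 0 in all 6 libraries of both tables. A listed 0 is not always absence, since 4 globin genes were at 0 in the counts and above 0 on the FPKM scale. Of the 10 tested, 8 were higher and 2 lower, 0 were called by edgeR, and 2 had an unadjusted p under 0.05, Ikzf3 and Ebf1, both higher. Among all tested genes 51.1% were higher and 8.32% were higher at that p. Ikzf3, encoding the lymphoid factor Aiolos, had 2, 3 and 5 counts in young and 37, 12 and 45 counts in aged libraries (log2 fold change 3.23 ± 0.78, SE, adjusted p = 0.235, edgeR; adjusted p = 0.0144, DESeq2). All 3 aged libraries exceeded the young ones, and the log2 fold change was 2.78 without the 136-week library. Ebf1 had 222 to 335 counts in young and 370 to 735 counts in aged libraries, again without overlap in CPM. Its log2 fold change was 0.95 ± 0.35 (SE, adjusted p = 0.35, edgeR).

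Other genes of plasma cells and antibody secretion were spread over both directions. Of 15 measured genes 13 were tested, with 6 higher and 7 lower in aged ECs, a median log2 fold change of -0.093 and 0 calls in edgeR or DESeq2. At an unadjusted p of 0.05 there were 1 higher and 1 lower, Pim2 and Xbp1, and 3 of the 13 were highest at 136 weeks. These shares were near those of all tested genes (8.32% higher, 4.32% lower and 25.7% highest at 136 weeks). In 3 of the 13, Xbp1 among them, every aged library was below every young one, against 8.33% of all tested genes. In 1 of the 13 every aged library was above, against 9.62%. Many genes of this list were abundant in every library. Xbp1, which drives secretory capacity in plasma cells and other cells, had 6165 to 11038 counts and was lower in all aged libraries (log2 fold change -0.37, adjusted p = 0.394, edgeR). Pim2, a survival kinase, was higher in all aged libraries (log2 fold change 0.84, adjusted p = 0.359, edgeR). Of 6 B cell precursor genes, Igll1, Vpreb2 and Rag1 were listed at 0 throughout and Vpreb1 alone was tested, with a log2 fold change of -1.27 ± 0.74 (SE, adjusted p = 0.541, edgeR). Of 4 genes linked to age-associated B cells 2 were tested, and both Tbx21 and Itgax were higher, with log2 fold changes of 1.87 and 2.18, 0 calls in edgeR or DESeq2 and 0 at an unadjusted p of 0.05. Both were highest at 136 weeks, and without that library their log2 fold changes were 1.33 and 0.45. Neither is particular to B cells, and the paper lists Itgax as a dendritic cell marker.

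Ligands and receptors that attract or sustain B cells are made in part by stromal cells and ECs. Of 13 measured genes 12 were tested, 11 were higher and 1 lower, 0 were called by edgeR, and 5 had an unadjusted p under 0.05, all higher, against 8.32% of all tested genes. DESeq2 called 2 of them, against 3.37% of all. Tnfsf13b, which encodes BAFF, the ligand of TACI, had 3, 5 and 5 counts in young and 89, 34 and 45 counts in aged libraries. Each aged library was far above the young ones, at 2.07 ± 0.894 CPM against 0.165 ± 0.0573 CPM (SD, n = 3 each). The log2 fold change was 3.63 ± 0.61 (SE, adjusted p = 0.184, edgeR), DESeq2 called it at an adjusted p of 8.3e-05, and it was 3.71 without the 136-week library. BAFF RNA was therefore separate between the ages where none of the 9 B cell genes was, and its highest library was the 127-week one. Cxcl13, the chemokine that draws B cells into follicles, had 9, 5 and 16 counts in young and 110, 2 and 2860 counts in aged libraries. It shared the high 136-week library with Cd79a and Cd22 and was lowest at 131 weeks. The log2 fold change was 6.76 ± 2.13 (SE, adjusted p = 0.301, edgeR), and 2.42 without the 136-week library. DESeq2 gave no p for Cxcl13, so it could not count among the DESeq2 calls. Ccr7, the receptor for lymphoid homing chemokines, had 29, 11 and 47 counts in young and 116, 35 and 552 counts in aged libraries. Its log2 fold change was 3.16 ± 1.01 (SE, adjusted p = 0.308, edgeR), which DESeq2 called at an adjusted p of 0.0133. Without the 136-week library it was 1.38. Cxcr4, the receptor for CXCL12, had 12 to 14 counts in young and 20, 42 and 86 counts in aged libraries, all of them above the young ones in CPM. Its log2 fold change was 1.95 ± 0.69 (SE, adjusted p = 0.333, edgeR), and 1.22 without the 136-week library.

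**Figure D5:**
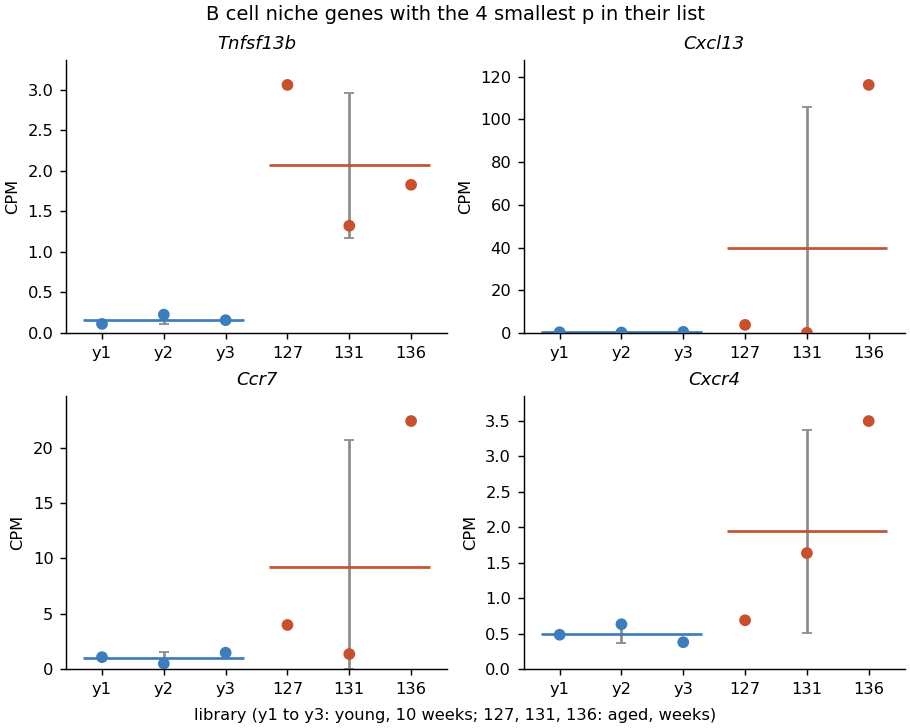
CPM (y axis, linear and different in each panel) of the 4 B cell niche genes with the smallest p in their list, in each library (x axis: y1 to y3, young; 127, 131 and 136, aged in weeks). Points are libraries, lines are means and grey bars are ± SD, drawn no lower than 0; Tnfsf13b and Cxcr4 were higher in every aged library, while Cxcl13 and Ccr7 peaked at 136 weeks.

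The genes whose profile over the 6 libraries was most like that of Cd79a were Lamb3, Prx, Pdgfc, D1Ertd622e and Ccr1, with a Pearson r of log2(CPM + 1) of 0.992 to 0.998 among 12421 genes. Those most like Igj were Iscu, Slc1a4, Ltbp2, Sfmbt2 and Ikzf1, with an r of 0.987 to 0.996. All of these 10 profiles share the same libraries and their sizes, and they are given as a description. Cd79a was low in all but the 136-week library, so its r values rest largely on that library. At 136 weeks 5.91% of all tested genes were at least 2 times every other library. Ikzf1 encodes the lymphoid factor Ikaros.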

How the data were processed

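CD31+CD45- liver cells were sequenced as 75-base single-end reads. The authors called bases with CASAVA (1.8.2), mapped to mm9 with TopHat2 (2.1.0) and deposited whole-number read counts per gene, with no normalization. The deposited FPKM came from Cuffnorm (2.2.1). The counting program, its annotation and its use of strand are not given in the sources used here. No exon of the 9 genes overlapped an exon of another gene in GENCODE vM1 on mm9.

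Counts were scaled by TMM and genes at 0.5 CPM in at least 1 library were kept. Ages were compared over all 14612 such genes with the quasi-likelihood test of edgeR (4.0.16, R 4.3.3), Benjamini-Hochberg adjusted at 0.05. A standard error is the size of the log2 fold change over the square root of F. DESeq2 (1.42.0), limma and voom (3.58.1) served as alternatives. An exact permutation test of 3 against 3 cannot go below 0.1, and none was used. The genes named are the 9 members and, from each other list, at most the 4 with the smallest p, those at 0 throughout and exceptions stated as such. The members and lists were chosen with earlier results of these data known. The labels do not say how replicates were raised, so p-values measure the spread between these samples.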

Additional observations from a re-analysis of the deposited data

How the results depend on the processing

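The count of called B cell and plasma cell genes was 0 in each direction under every one of the 14 alternatives. Without the 136-week library the log2 fold change reversed for Cd79b (-0.85), Igj (-0.035), Mzb1 (-0.39) and Cd22 (-0.59), which were all highest in that library. Cd79a, Ms4a1 and Pou2af1 were highest there too, and stayed above 0 without it (0.26, 0.89 and 0.95). The log2 fold change of Blk reversed to 0.035 on log2(FPKM + 0.1) and to 0.011 on log2(FPKM + 1), and the cause was not tested. The median log2 fold change was 1.25 with limma-voom, 0.79 on log2(FPKM + 0.1) and 0.30 on log2(FPKM + 1), where the offset shrinks low genes, and -0.039 to 2.42 when each library was left out in turn. Over those fits the log2 fold change ran from the values above to 2.32 (Cd79b), 4.74 (Igj), 3.52 (Mzb1) and 5.27 (Cd22), each highest without young replicate 1. The number of genes whose ages did not overlap was 0 to 2 when each library was left out, at 2 without young replicate 1 and at 1 without young replicate 3, the 127-week or the 131-week library. With fewer libraries such separation is easier to reach. The matching share over all genes was not computed, so these counts are not read as a rise. No paired analysis was possible because the aged samples carry no replicate numbers. At these depths a gene under 3 counts, as Mzb1 was in 4 libraries, cannot be told from one that is not transcribed.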

Other observations

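Young replicate 1 differed from the other young libraries in a few genes besides Igj. Klk1, from a list of plasmacytoid dendritic cell markers, had 222 counts in young replicate 1 and 0 to 9 counts in the other 5 libraries. Spib and Ikzf1, singled out after their values were seen, had 37 and 30 counts there, against 2 and 1 in young replicate 2 and 13 and 3 in young replicate 3. At 136 weeks Spib and Ikzf1 had 29 and 69 counts. The plasmacytoid marker Siglech had 6, 0 and 6 counts in the young libraries and did not set replicate 1 apart. The remaining plasmacytoid genes, given so that the list is whole, were highest among young libraries in replicate 1. Ccr9 had 19, 5 and 6 counts in the young libraries, Cox6a2 had 7, 0 and 0, and Pacsin1 had 4, 0 and 1. The summed level of the 5 plasmacytoid genes was 0.226 to 9.60 CPM in young libraries and 2.03 CPM at 136 weeks, and without Klk1 it was 0.226 to 1.34 CPM and 1.67 CPM. The part of any cell type in these values was not tested.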
